A study of Mus musculus with 4 samples.

Results

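The genes described here encode the ephrin, Slit, Nell and netrin ligands of axon guidance and the receptors that read them. They were taken by name from the 4 library tables as all Eph receptors of classes A and B, ephrins, Slits, Robos, Nell1 and Nell2, netrins, netrin-Gs and Unc5 receptors, together with Dcc and Neo1. This gave 43 genes of 25239 gene IDs. Of these, 36 reached 1 TPM (a transcript level scaled to transcript length and library total) in at least 2 libraries and were tested among 13984 genes. The other 7, Epha1, Efna1, Slit3, Robo4, Ntn5, Ntng1 and Unc5d, were not tested and are given as levels. RNA was sequenced from dissected mouse retina at E13.5 (E, embryonic day), from 2 samples with the genotype control and 2 with the genotype Isl1cKO, the genotype the series describes as Isl1-null. The labels name no treatment for either group. The strain, the Cre driver, the alleles that the controls carry and the number of retinas in a sample are not given in the sources used here. Because nothing states that the samples came from separate animals, p-values measure only the spread between these libraries.

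Axon guidance ligands act on growth cones through receptors that attract or repel them. In the retina, graded Eph receptors and ephrins set the map along the nasal-temporal and dorsal-ventral axes, and EphB1 with ephrin-B2 steers uncrossed axons at the optic chiasm. Slits repel growth cones through Robo1 and Robo2, and netrin 1 at the optic disc draws ganglion cell axons out of the eye through Dcc. Nell2 is a secreted protein that binds Robo3, the divergent Robo receptor best known for midline crossing of commissural axons.

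Isl1 itself, a LIM-homeodomain transcription factor, was read first as a check of the labels. Its level was 242 and 201 TPM in the control libraries against 321 and 223 TPM under the Isl1cKO label, so the groups overlapped and the gene was not lower under the Isl1cKO label. The log2 fold change, here and below of TPM + 1 in the libraries labelled Isl1cKO against control, was 0.28 (SE 0.21, adjusted p = 0.683 in limma). The tables give no value per exon, and every direction below rests on the labels. Markers of retinal progenitors were abundant in each library, with summed levels of 6113 to 7424 TPM over 10 genes. Of these 10, 3 were lower and 4 higher under the Isl1cKO label without overlap, and 0 passed an adjusted p of 0.05 in limma. Of 15 tested ganglion cell markers, 14 were lower in both libraries labelled Isl1cKO than in both controls, the exception being Pou4f2, and 0 passed an adjusted p of 0.05. The 16 listed markers, Pou4f2 included, summed to 3859 and 3309 TPM in the controls against 1960 and 1345 TPM under the Isl1cKO label. Lower levels were not limited to ganglion cell markers. Without overlap, 4 of 5 tested amacrine and 3 of 6 tested photoreceptor precursor markers were lower and 0 higher. Of 4 tested horizontal cell markers, 0 were lower and 2 higher, and 0 of these 3 lists' genes passed. Over all tested genes the shares without overlap were 30.0% lower and 14.9% higher. In bulk tissue, fewer cells of a type and less RNA per cell cannot be told apart. Of 11 lens markers, from tissue next to the retina, 6 passed, all lower. Among those 6, Cryba1, Cryba2 and Cryba4 reached the 1 TPM of the filter only in the controls. The 11 lens markers summed to 190 and 237 TPM in the controls, as against 13.1 and 9.47 TPM under the Isl1cKO label. Their part in the levels below was not tested. All 7 tested red blood cell markers were lower without overlap and 0 passed, with sums over the 8 listed of 2500 and 3490 TPM in the controls, then 1275 TPM in Isl1cKO replicate 1 and 202 TPM in Isl1cKO replicate 2. Of 8 microglia markers, 5 were higher without overlap and 0 passed, with sums of 51.9 and 54.0 TPM in the controls, then 66.4 and 78.9 TPM in Isl1cKO replicates 1 and 2. The part of blood and microglia in the members' levels was not tested either.

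Across all tested genes, 0.465% were called lower and 0.0286% called higher at an adjusted p under 0.05 in limma. Among the 36 tested guidance genes 1 was called lower, which was Nell2, and 0 were called higher. At an unadjusted p under 0.05 there were 10 members, 8 lower and 2 higher, where the shares over all genes were 12.1%, 8.92% and 3.20%. A log2 fold change of at least 0.5 in size was reached by 9 members, or 25.0%, against 6.84% of all tested genes. Both values of one group lay beyond both of the other for 14 members on the lower side and 6 on the higher side, and the shares over all genes were 30.0% and 14.9%. The log2 fold change was negative for 26 members, or 72.2%, against 63.8% of all tested genes. Its median was -0.15 over the members and -0.05 over all tested genes. Of the 15 tested ligands 11 had a negative and 4 a positive log2 fold change, and of the 21 receptors 15 and 6.

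**Figure D1:**
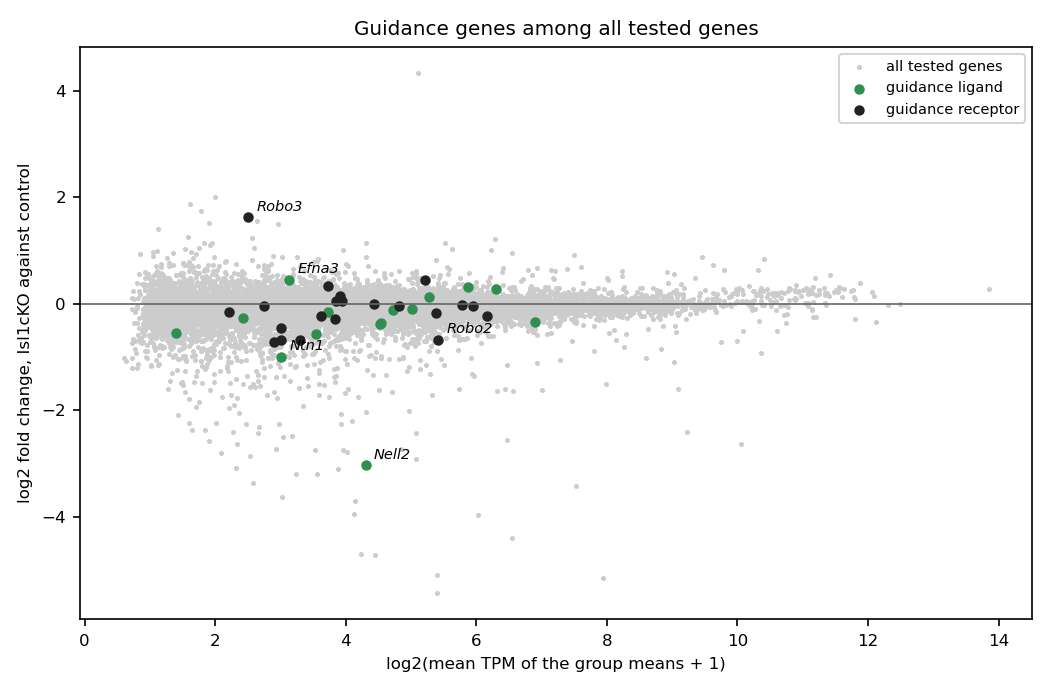
Log2 fold change of TPM + 1, libraries labelled Isl1cKO against control, plotted against mean level as log2(TPM + 1) for all 13984 tested genes in grey, with the 15 tested guidance ligands in green and the 21 tested receptors in black. Nell2 lies far below and Robo3 far above the other members, most of which lie within the band of all genes.

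The Robo receptors differed from each other in direction, so the 250 bases upstream of the annotated start are shown for the 3 of them that were expressed. The sequences are from RefSeq on GRCm38.p6, the assembly also named mm10, and each start site is the one at the gene boundary in the authors' tables. Capitals mark TAAT, the core of many homeodomain binding sites, and its reverse complement ATTA, which overlap in TAATTA. The windows are chr9:37433176-37433425 (minus strand) for Robo3, chr16:75092771-75093020 (minus strand) for Robo2 and chr16:72662899-72663148 (plus strand) for Robo1.
Robo3: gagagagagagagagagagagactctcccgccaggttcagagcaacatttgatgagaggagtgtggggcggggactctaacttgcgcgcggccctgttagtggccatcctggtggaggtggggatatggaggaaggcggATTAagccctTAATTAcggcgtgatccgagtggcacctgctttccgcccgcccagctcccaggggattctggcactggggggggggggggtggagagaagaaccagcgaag
Robo2: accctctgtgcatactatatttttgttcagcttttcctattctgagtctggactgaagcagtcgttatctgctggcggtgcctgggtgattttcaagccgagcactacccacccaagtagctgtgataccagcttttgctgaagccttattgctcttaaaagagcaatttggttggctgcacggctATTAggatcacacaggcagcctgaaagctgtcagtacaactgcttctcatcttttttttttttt
Robo1: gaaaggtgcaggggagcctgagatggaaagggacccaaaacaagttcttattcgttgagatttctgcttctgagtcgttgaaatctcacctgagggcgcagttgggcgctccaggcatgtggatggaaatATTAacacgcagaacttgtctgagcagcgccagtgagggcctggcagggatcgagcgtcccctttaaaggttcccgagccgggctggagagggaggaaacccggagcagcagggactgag
The Robo3 window held 3 matches, 2 of them overlapping in TAATTA, while the Robo2 and Robo1 windows held 1 match each. TAAT or ATTA was present in 54.9% of all 32851 windows of this length in the table and in 15 of the 42 windows of 37 members, or 35.7%. At least 3 matches, as in the Robo3 window, were present in 17.3% of all windows and in 2 of the 42. TAATTA was present in 4.8% of all windows and in 3 of the 42. The members' windows had a higher median GC content, 65.2% against 52.4%, and a match here is a description of letters and not a binding site. Nell2, Ntn1, Slit1, Efnb3, Unc5d and Dcc were not among the windows used.

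Nell2 was the guidance gene with the largest difference. It lies on chromosome 15 (95219440 to 95528758, minus strand, mm10) and encodes a secreted glycoprotein with EGF-like repeats. Its level was 40.1 and 28.3 TPM in control replicates 1 and 2, against 3.77 and 2.76 TPM under the Isl1cKO label. The lower control was thus well above the higher Isl1cKO value. Nell2 fell from 34.2 ± 8.34 to 3.26 ± 0.716 TPM (SD, n = 2 each), which is 10.5-fold lower, with a log2 fold change of -3.03 (SE 0.21) and an adjusted p of 0.0239 in limma. The call was lost without any 1 of the 4 libraries (adjusted p of 0.0576 to 0.106), at a pseudocount of 0.1 (0.0545) and with no filter on low values (0.103), while the log2 fold change stayed between -3.34 and -2.59 over all alternatives. All 16 listed ganglion cell markers, Pou4f2 included, had a summed level 2.17-fold lower, against 10.5-fold for Nell2. Single markers differed widely. Pou4f3, at 4.86 and 2.02 TPM in the controls, had a control mean 9.04-fold higher, while the same ratio for Pou4f2 was 0.981. The part of RNA from ganglion cells or from other neurons in the levels of Nell2, and of Robo2 and Ntn1 below, was not tested.

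Nell1, the paralog of Nell2, stood at 3.03 and 1.22 TPM in the controls against 1.69 and 0.550 TPM under the Isl1cKO label. These values overlapped, and its log2 fold change of -0.55 (SE 0.40) did not pass (adjusted p = 0.668 in limma). It was -0.123 without control replicate 1, -0.153 without Isl1cKO replicate 2, -0.979 without control replicate 2 and -0.949 without Isl1cKO replicate 1. Nell2 made up 93.0% and 95.9% of the Nell TPM in the controls and 69.0% and 83.4% in the libraries labelled Isl1cKO.

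**Figure D2:**
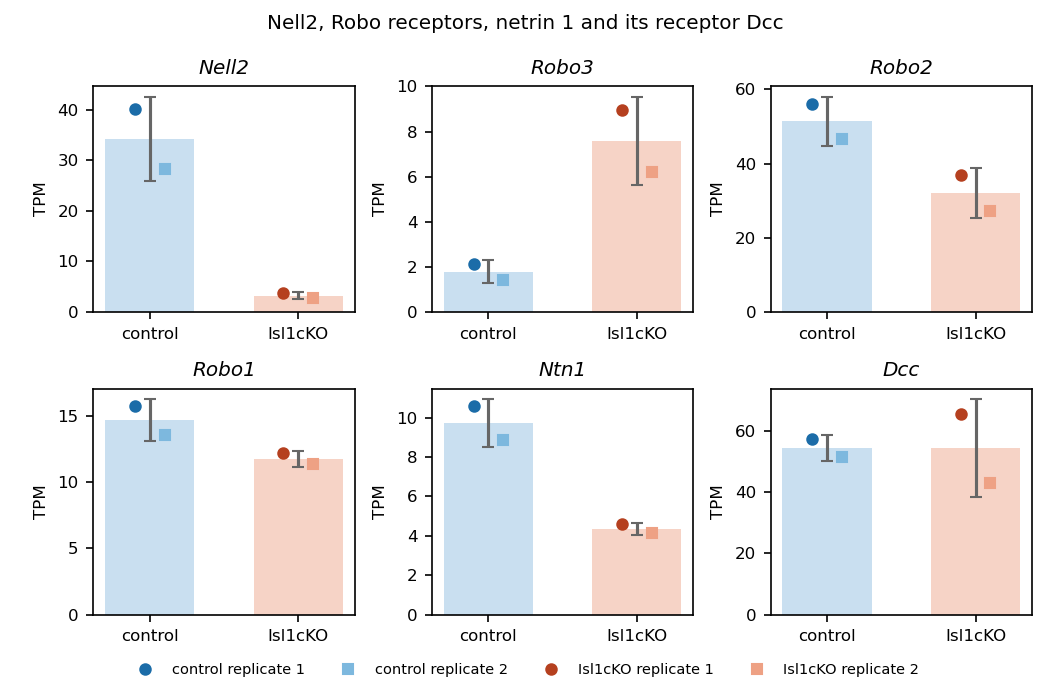
Level in TPM of Nell2, Robo3, Robo2, Robo1, Ntn1 and Dcc in control and Isl1cKO libraries. Bars are group means with SD (n = 2), and points are single libraries. The 2 groups are apart for every gene but Dcc, whose 2 Isl1cKO values lie on either side of the controls.

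Robo3, the receptor for Nell2, lay on the other side. Robo3 (chromosome 9, 37416045 to 37433175, minus strand) was at 2.14 and 1.42 TPM in the controls against 8.97 and 6.22 TPM under the Isl1cKO label. Both Isl1cKO values were above both control values. The means were 1.78 ± 0.510 and 7.60 ± 1.95 TPM (SD, n = 2 each), a ratio of 4.27, and the log2 fold change of 1.62 (SE 0.21) missed the threshold in limma (adjusted p = 0.101). It passed with FPKM in place of TPM (log2 fold change 1.23, adjusted p = 0.0339) and with a mean-variance trend (0.0495), within a range of 0.00714 to 0.313 over all its alternatives. The ratio of Nell2 to Robo3 TPM was 18.7 and 19.9 in the controls and 0.420 and 0.443 in the libraries labelled Isl1cKO, so the receptor message exceeded the ligand message only under the second label.

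The 2 Robo receptors that carry the Slit signal were lower with the Isl1cKO label. Robo2, the main Robo of ganglion cells, was at 56.0 and 46.7 TPM in the controls against 36.8 and 27.3 TPM under the Isl1cKO label. Its log2 fold change was -0.67 (SE 0.18), with an adjusted p of 0.295 in limma. Robo1 was at 15.8 and 13.6 TPM in the controls against 12.2 and 11.3 TPM under the Isl1cKO label, a log2 fold change of -0.29 (SE 0.11, adjusted p = 0.401). The groups did not overlap for either gene, and neither passed. Robo3 made up 2.87% and 2.29% of all Robo TPM in the controls and 15.5% and 13.9% under the Isl1cKO label. For Robo2 these shares were 75.2% and 75.4% against 63.4% and 60.8%.

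Robo4, a receptor of blood vessels, lies 2021 bases from Robo3, with which it converges, and the transcribed intervals in the tables do not overlap. It stood at 0.585 and 0.243 TPM in the controls, at 0.0335 TPM in Isl1cKO replicate 1, and was listed at 0 in Isl1cKO replicate 2. Of the endothelial markers, Kdr had 55.5 to 69.0 TPM and Cldn5 had 3.38 to 7.20 TPM, and the others did not exceed 2.55 TPM in any library. The endothelial cadherin Cdh5 had 2.55 and 0.357 TPM in the controls, 0.211 TPM in Isl1cKO replicate 1, and was listed at 0 in Isl1cKO replicate 2, in the same order of libraries as Robo4. Among the listed endothelial markers only Pecam1 had another order, at 2.45 and 0.592 TPM in the controls against 0.681 and 0.296 TPM under the Isl1cKO label. The part of vessel content in the Robo4 levels was not tested.

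The Slit ligands were measured next. Slit2 was the most abundant, at 35.0 and 37.1 TPM in the controls against 43.8 and 35.7 TPM under the Isl1cKO label. Slit1 was at 27.8 and 25.1 TPM in the controls against 28.9 and 20.1 TPM under the Isl1cKO label. Both overlapped between the groups, with log2 fold changes of 0.13 (SE 0.13, adjusted p = 0.749) and -0.12 (SE 0.19, adjusted p = 0.838) in limma, and the sign turned for Slit1 without Isl1cKO replicate 2 (0.13) and for Slit2 without Isl1cKO replicate 1 (-0.014). Slit3 stayed between 0.133 and 0.645 TPM. Slit message summed to a mean of 63.1 TPM for control and 64.6 TPM for Isl1cKO, whereas Robo message summed to means of 68.2 and 51.4 TPM.

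Netrin 1 had the second largest difference among the ligands tested, and it missed the threshold. Ntn1 (chromosome 11, 68209364 to 68386826, minus strand) was at 10.6 and 8.85 TPM in the controls against 4.58 and 4.16 TPM under the Isl1cKO label. The groups were well apart, with means of 9.71 ± 1.21 and 4.37 ± 0.302 TPM (SD, n = 2 each). The control mean was 2.22-fold higher, and limma gave a log2 fold change of -0.99 (SE 0.11, adjusted p = 0.0757). It passed with FPKM (log2 fold change -0.78, adjusted p = 0.0349 in limma). At a filter of 5 TPM, which Ntn1 met only through the controls, the adjusted p was 0.0490. Over the alternatives that kept all 4 libraries it ranged from 0.0227 to 0.176. With each library left out, the log2 fold change of Ntn1 lay between -1.11 and -0.877. Pax2 and Vax1, transcription factors of the optic disc and stalk where netrin 1 is made, summed to 19.0 and 19.5 TPM in the controls, as against 15.4 and 24.8 TPM under the Isl1cKO label, and overlapped between the groups. The part of disc and stalk content in the Ntn1 levels was not tested.

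The other netrins were nearer to their control levels. Ntn4, a basement membrane netrin, was the most abundant of the family at 13.2 and 12.8 TPM in the controls against 10.7 and 12.5 TPM under the Isl1cKO label. Ntn3 was at 5.27 and 4.45 TPM and at 3.67 and 3.996 TPM. Both were lower without overlap, with log2 fold changes of -0.15 (SE 0.10, adjusted p = 0.646) and -0.27 (SE 0.11, adjusted p = 0.426) in limma. Ntn5 was listed at 0 in all 4 libraries. Ntn1 made up 36.3% and 33.97% of netrin TPM in the controls and 24.2% and 20.1% in the libraries labelled Isl1cKO.

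The netrin-Gs are held in the membrane by a lipid anchor and bind NGL proteins in place of Dcc. Ntng2 was at 15.5 and 10.3 TPM in the controls against 10.6 and 6.32 TPM under the Isl1cKO label, with overlap (log2 fold change -0.57, SE 0.30, adjusted p = 0.540 in limma). Its log2 fold change was -0.238 without Isl1cKO replicate 2, -0.301 without control replicate 1 and -0.901 without Isl1cKO replicate 1. Ntng1, which was not tested, was at 1.76 and 0.943 TPM in the controls against 0.379 and 0.302 TPM under the Isl1cKO label.

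The attractive netrin receptors were among the most abundant members and differed little. Dcc was at 57.2 and 51.3 TPM in the controls against 65.5 and 43.0 TPM under the Isl1cKO label, and the replicates under that label differed from each other more than the groups did. Its log2 fold change was -0.03 (SE 0.22, adjusted p = 0.972 in limma), and its sign depended on the scaling. Neo1, the Dcc paralog that also binds repulsive guidance molecules, stayed between 59.0 and 63.5 TPM in all 4 libraries (log2 fold change -0.05, SE 0.08, adjusted p = 0.862), with a sign that also turned under other scalings. The level of Dcc was thus about that of Neo1, and both exceeded Ntn1 in every library.

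Unc5 receptors, which turn the netrin response into repulsion, showed no common direction. Unc5c was at 9.91 and 7.83 TPM in the controls against 5.85 and 4.42 TPM under the Isl1cKO label, without overlap (log2 fold change -0.69, SE 0.17, adjusted p = 0.275 in limma). Unc5a was on the higher side at 11.0 and 10.3 TPM and at 11.8 and 16.01 TPM (log2 fold change 0.34, SE 0.16, adjusted p = 0.491). Leaving out Isl1cKO replicate 2 gave 0.138, and leaving out Isl1cKO replicate 1 gave 0.543. Unc5b, the most abundant of the family, spread within each group, at 20.8 and 34.9 TPM in the controls against 30.3 and 23.0 TPM under the Isl1cKO label. Its log2 fold change of -0.03 (SE 0.28, adjusted p = 0.977) changed sign with the scaling. Unc5d stayed between 0.407 and 0.681 TPM.

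**Figure D3:**
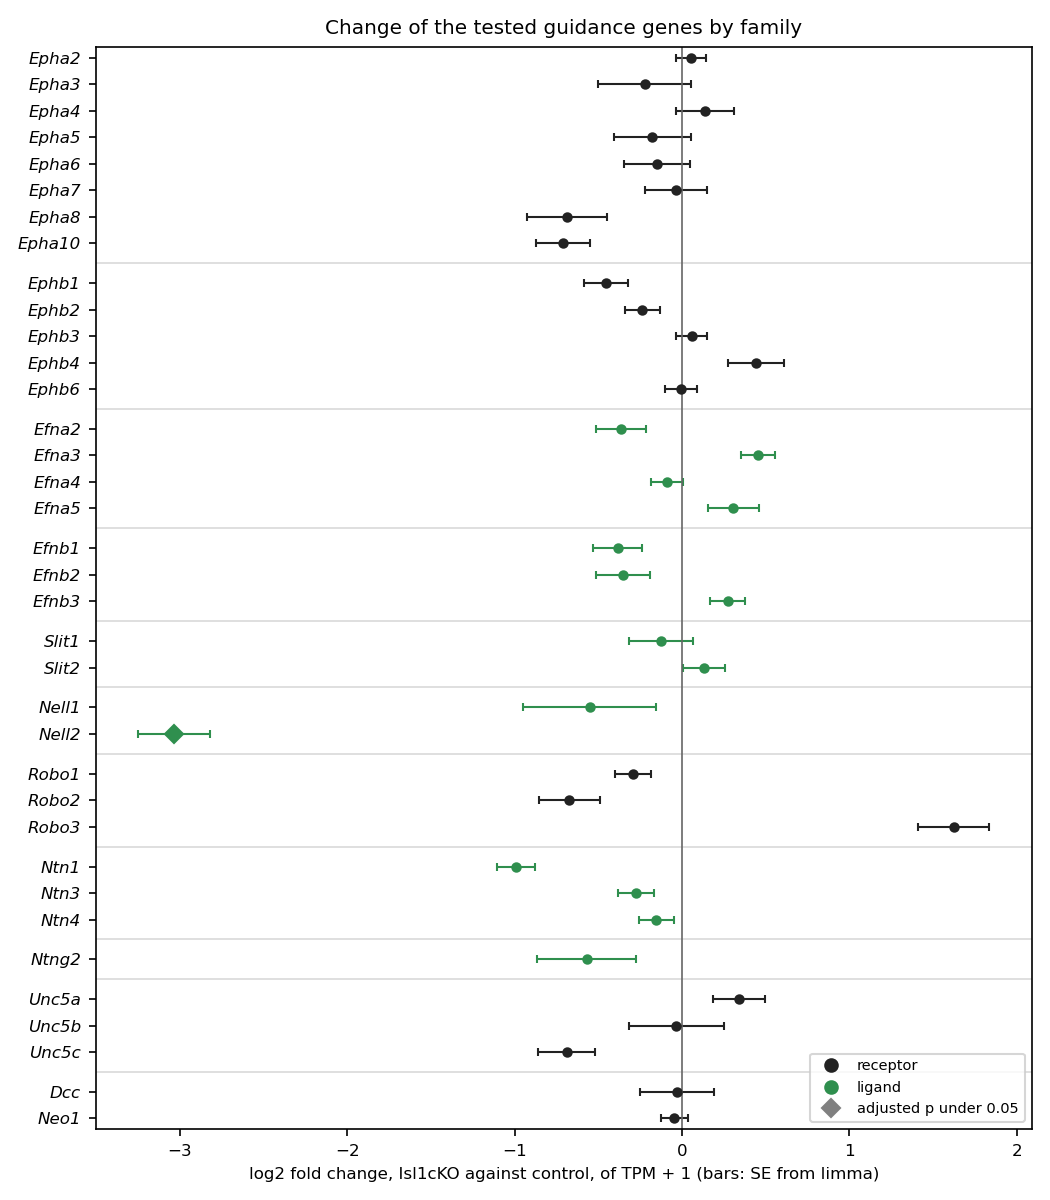
Log2 fold change of TPM + 1 in the libraries labelled Isl1cKO against control for the 36 tested members, by family, with SE from limma as bars, receptors in black and ligands in green. Only Nell2, drawn as a diamond, has an adjusted p under 0.05, and Robo3 at 1.62 is the only member above 0.5.

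EphA receptors bind the lipid-anchored ephrin-A ligands, and Epha5 was the most abundant of them. Epha5 was at 44.2 and 41.3 TPM in the controls against 47.3 and 29.9 TPM under the Isl1cKO label (log2 fold change -0.18, SE 0.23, adjusted p = 0.810 in limma). The controls lay between the 2 Isl1cKO values. All 8 tested EphA genes were lower in Isl1cKO replicate 2 than in replicate 1, by a median of 0.50 on the log2 scale. Over all 36 tested members the median size of the difference between replicates was 0.39 under the Isl1cKO label and 0.16 in control, and over all genes it was 0.14 and 0.09.

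Of the 8 tested EphA genes, Epha8 and Epha10 had no overlap between the groups, and both were lower. Epha10, whose product lacks a functional kinase, was at 8.72 and 7.68 TPM in the controls against 5.42 and 3.89 TPM under the Isl1cKO label (log2 fold change -0.71, SE 0.16, adjusted p = 0.239 in limma). Epha8 was at 12.3 and 9.74 TPM and at 8.16 and 5.004 TPM (log2 fold change -0.69, SE 0.24, adjusted p = 0.384). Epha2, Epha3, Epha4, Epha6 and Epha7 overlapped, with log2 fold changes from -0.22 for Epha3 to 0.14 for Epha4. The sign turned without Isl1cKO replicate 2 for Epha3, Epha5, Epha6 and Epha7, without Isl1cKO replicate 1 for Epha4, and without control replicate 1 for Epha2. That of Epha7 also turned without control replicate 2 and under other scalings. Epha1, which was not tested, lay higher without overlap, with 0.353 and 0.358 TPM in the controls against 0.493 and 0.397 TPM under the Isl1cKO label.

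**Figure D4:**
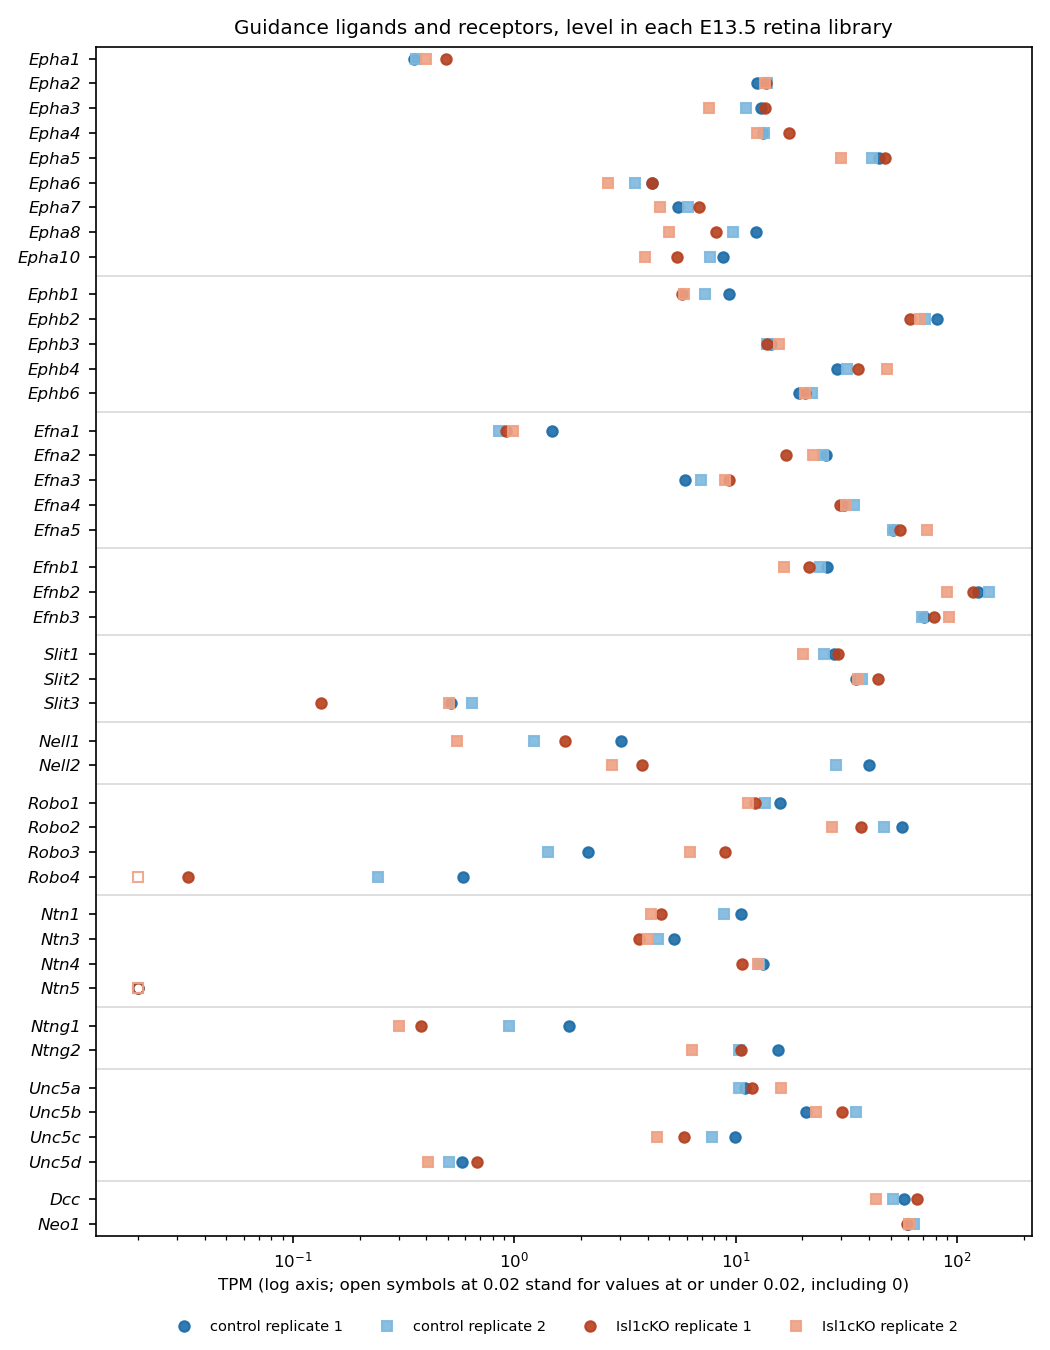
Level in TPM, on a log axis, of all 43 members in each library, grouped by family, with controls in blue and Isl1cKO in red, circles for replicate 1 and squares for replicate 2. Nell2, Robo3 and Ntn1 have red symbols well apart from blue ones, and for the EphA genes the square of Isl1cKO replicate 2 lies to the left of its circle.

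EphB receptors bind the transmembrane ephrin-B ligands, which can also signal back into their own cell. Ephb2, highest in ventral retina, was the most abundant Eph receptor at 81.0 and 71.6 TPM in the controls against 61.5 and 67.6 TPM under the Isl1cKO label (log2 fold change -0.24, SE 0.11, adjusted p = 0.480 in limma). Ephb1, the receptor of uncrossed ganglion cells, was at 9.34 and 7.28 TPM and at 5.69 and 5.84 TPM (log2 fold change -0.45, SE 0.13, adjusted p = 0.322). Both were lower without overlap. Ephb4 was on the higher side at 28.6 and 31.8 TPM in the controls against 35.6 and 48.1 TPM under the Isl1cKO label (log2 fold change 0.44, SE 0.17, adjusted p = 0.418). Ephb3 and Ephb6 overlapped, at log2 fold changes of 0.06 and -0.01. The sign of Ephb6 depended on the scaling, and that of Ephb3 turned without Isl1cKO replicate 2. Mean summed EphB levels were nearly equal, at 149.6 TPM for control against 147 TPM for Isl1cKO.

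Zic2, the transcription factor that turns on Ephb1 in uncrossed ganglion cells, lay on the other side from Ephb1. It was at 117 and 118 TPM in the controls against 144 and 150 TPM under the Isl1cKO label, on the higher side (log2 fold change 0.32, adjusted p = 0.270 in limma). Bulk levels do not show which cells held either message, and a link between Zic2 and Ephb1 here was not tested.

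Of the ephrin-As, Efna5 and Efna3 were on the higher side. Efna5, a repellent for temporal ganglion cell axons, was at 51.1 and 51.5 TPM in the controls against 55.3 and 73.3 TPM under the Isl1cKO label (log2 fold change 0.31, SE 0.15, adjusted p = 0.524 in limma). This became 0.107 without Isl1cKO replicate 2 and 0.505 without Isl1cKO replicate 1. Efna3 was at 5.90 and 6.94 TPM and at 9.31 and 8.96 TPM (log2 fold change 0.45, SE 0.10, adjusted p = 0.240). Efna2 was on the lower side at 25.5 and 24.9 TPM and at 16.8 and 22.3 TPM (log2 fold change -0.36, SE 0.15, adjusted p = 0.452). Efna4 overlapped, with a range of 29.4 to 34.3 TPM over the libraries, and Efna1 stayed between 0.853 and 1.48 TPM.

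The ephrin-Bs split in the same way, with no overlap for any of the 3. Efnb2, the most abundant member of all families and highest in dorsal retina, was at 124 and 140 TPM in the controls against 118 and 89.8 TPM under the Isl1cKO label (log2 fold change -0.35, SE 0.16, adjusted p = 0.488 in limma). Efnb1 was at 25.7 and 24.0 TPM and at 21.5 and 16.5 TPM (log2 fold change -0.38, SE 0.15, adjusted p = 0.421). Efnb3 was on the higher side at 70.7 and 69.6 TPM and at 78.9 and 91.7 TPM (log2 fold change 0.27, SE 0.10, adjusted p = 0.421). For all 3, Isl1cKO replicate 2 was the library farthest from the controls, and without it the log2 fold changes were -0.155 for Efnb2, -0.202 for Efnb1 and 0.166 for Efnb3.

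Regulators of the retinal axes were read beside the ephrins. Vax2, a ventral transcription factor, was at 88.7 and 95.5 TPM in the controls, then 110 and 166 TPM in Isl1cKO replicates 1 and 2. Tbx5, a dorsal one, was at 16.9 and 18.8 TPM in the controls, with 15.1 and 5.65 TPM in Isl1cKO replicates 1 and 2. Isl1cKO replicate 2 was therefore highest for Vax2 and lowest for Tbx5, as it was lowest for Efnb1 and Efnb2. Ephb2, also highest in ventral retina, did not share this order. It was at 67.6 TPM in that library, under both controls (81.0 and 71.6 TPM) and above Isl1cKO replicate 1 (61.5 TPM). Foxd1, a temporal gene, overlapped between the groups at 29.2 and 23.5 TPM in the controls against 20.0 and 28.7 TPM under the Isl1cKO label. None of the 3 passed (adjusted p of 0.434 for Vax2, 0.531 for Tbx5 and 0.850 for Foxd1 in limma), and the part of the region sampled in the ephrin levels was not tested.

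A list of 56 partners, effectors and regulators of these families was read as well, of which 55 were tested and 0 passed in either direction in limma. At an unadjusted p under 0.05 there were 10 lower and 3 higher genes of the 55, where the shares over all tested genes were 8.92% and 3.20%. The median log2 fold change of the list was -0.11 against -0.05 over all genes. The gene with the largest difference was Dscam, an adhesion molecule that also binds netrin 1, at 8.95 and 6.43 TPM in the controls against 2.17 and 1.68 TPM under the Isl1cKO label (log2 fold change -1.56, SE 0.18, adjusted p = 0.0747). It passed in limma with FPKM (0.0335) and with a mean-variance trend (0.0395). At a filter of 5 TPM, which Dscam met only through the controls, the adjusted p was 0.0490. Trim67, a ubiquitin ligase of the netrin pathway, was at 10.00 and 7.76 TPM and at 4.71 and 3.42 TPM (log2 fold change -0.97, adjusted p = 0.178).

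Further down the list, Srgap1, a GTPase-activating protein that binds Robo, was at 22.9 and 19.4 TPM in the controls against 13.4 and 11.2 TPM under the Isl1cKO label (log2 fold change -0.74, adjusted p = 0.171 in limma). Ablim1, an actin-binding protein, was at 40.9 and 32.8 TPM and at 22.1 and 20.6 TPM (log2 fold change -0.75, adjusted p = 0.163). Arhgef15, an exchange factor that binds EphB2, was at 1.57 and 1.39 TPM and at 0.941 and 0.295 TPM (log2 fold change -0.65, adjusted p = 0.362). This gene reached the 1 TPM of the filter only in the controls, so it was tested only through the group where it was higher. All of these, named for their size of change, lay lower in both libraries labelled Isl1cKO than in both controls, and none passed. Over the whole list, 28 of the 55 tested genes were lower and 8 higher without overlap. The shares over all tested genes were 30.0% and 14.9%.

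By family total, the Nell ligands differed most between the groups, at 43.1 and 29.5 TPM in the controls against 5.46 and 3.31 TPM under the Isl1cKO label. Netrins summed to 29.1 and 26.1 TPM against 19.0 and 20.7 TPM, and Robos to 74.5 and 61.9 TPM against 58.0 and 44.9 TPM. Netrin-Gs summed to 17.2 and 11.3 TPM against 10.97 and 6.62 TPM, and ephrin-Bs to 221 and 233 TPM against 219 and 198 TPM. In these 5 families every Isl1cKO sum lay under every control sum, narrowly so for netrin-Gs and ephrin-Bs. These sums include Robo3 and Efnb3, which were higher without overlap. The netrin-G sum is mostly Ntng2, which overlapped. How often sums of other gene families part in this way was not measured. The sums of EphA, EphB, ephrin-A, Slit and Unc5 genes and of the pair of Dcc and Neo1 overlapped, with ratios of the Isl1cKO mean to the control mean from 0.893 to 1.07.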

How the data were processed

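RNA of E13.5 mouse retina was sequenced in 4 libraries (2 control, 2 Isl1cKO), strand-specific and poly(A)-selected per the labels' protocols. Trimmomatic, HISAT2, SAMtools, StringTie and DESeq2 and the build mm10 are named in the submitters' processing notes, with no versions. The authors deposited 1 table per library with TPM, FPKM and coverage per gene, per the file headers; TPM sums to 1000000 per library. How strand was used in counting is not given in the sources used here. The deposited FPKM served as an alternative, and the deposited coverage signal was used only for depth: its ratio to FPKM corresponds to 12.6 to 14.3 gigabases per library. Depth in reads is unknown.

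TPM were summed over repeated rows of a gene ID, though no member had any. Genes at 1 TPM or more in at least 2 libraries were tested as log2(TPM + 1) with limma 3.58.1 in R 4.3.3, genotype as the only term, with Benjamini-Hochberg adjustment over all 13984 genes and a threshold of 0.05. A fold change on this scale understates the change of low genes. The model was tested on simulated data. Members, lists and alternatives were chosen with earlier results of these data known. Named with values per library were members past the threshold, those with a log2 fold change of at least 0.5 in size, and the most abundant of each family, then other members by family, and up to 6 genes of the list of partners by size of change. Axis regulators and Zic2 are also from that list, of which 1 gene is not reported here. Alternatives were the pseudocount, the filter, FPKM, 2 other scalings, a variance trend, the replicate block, genes on several rows and each library left out. All 43 members lay at their RefSeq position on GRCm38.p6.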

Additional observations from a re-analysis of the deposited data

How the results depend on the processing

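The number of genes past the threshold, 69 of 13984, was 44 at a pseudocount of 0.1, 15 with no filter beyond a value above 0, 127 with FPKM and 110 with a mean-variance trend, and 10 to 37 with each library left out in turn, lowest without control replicate 1. The members called lower, 1 at the setting used, were 0 at a pseudocount of 0.1 and with no filter, 2 at a filter of 5 TPM and with FPKM, and 0 with each library left out in turn. A lone library is there assumed to vary like the other group. The members called higher, 0 at the setting used, were 1 with FPKM and with a mean-variance trend (Robo3). The list of partners, 0 at the setting used, gave 1 at a filter of 5 TPM, with FPKM and with a mean-variance trend (Dscam). At the filter of 5 TPM, Ntn1 and Dscam were kept only through their control levels. The cause of the changes in these counts was not tested.

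Same-numbered libraries were compared for a shared pairing. Their deviations within each group had a correlation of 0.126 over the tested genes, and since there are only 2 pairs, the numbers were not taken as a pairing. A fit with the replicate block called 265 genes, among them 2 lower members (Nell2 and Ntn1), 1 higher member (Robo3) and 3 genes of the list of partners (Dscam, Trim67 and Srgap1).

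Of the 36 tested members, 23 kept their sign under every alternative run and 13 did not, none of which passed the threshold at any of them. With FPKM, median-ratio and upper-quartile scaling the log2 fold change was 0.0071, 0.011 and 0.014 for Epha7, 0.038, 0.047 and 0.050 for Ephb6, 0.012, 0.021 and 0.024 for Unc5b, 0.019, 0.025 and 0.028 for Dcc, and 0.0032, 0.0092 and 0.012 for Neo1. With each library left out it ranged from -0.015 to 0.13 for Epha2, -0.61 to 0.16 for Epha3, -0.091 to 0.37 for Epha4, -0.50 to 0.15 for Epha5, -0.40 to 0.11 for Epha6, -0.28 to 0.21 for Epha7, -0.020 to 0.14 for Ephb3 and -0.096 to 0.082 for Ephb6. It ranged from -0.38 to 0.13 for Slit1, -0.014 to 0.27 for Slit2, -0.39 to 0.33 for Unc5b, -0.33 to 0.27 for Dcc and, in the list of partners, -0.377 to 0.124 for Foxd1.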
